A study of Mus musculus with 32 samples.

Results

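The 10 genes described here encode the core of the NF-κB system: the subunits Nfkb1, Nfkb2, Rela, Relb and Rel, the inhibitors Nfkbia, Nfkbie and Nfkbiz, the feedback enzyme Tnfaip3 and the kinase Ikbkb. They were taken by symbol from the table of raw gene counts, where 10 of 10 were found among 24421 genes and 10 of 10 passed the filter on low counts that left 14154 genes for testing. The RNA came from 8 fractions sorted from the bone marrow of female C57BL/6 mice at 10 weeks (Young) and 20 months (Aged). There were 2 libraries in each of 16 groups and 32 in all. Hematopoietic stem cells (HSCs) were Lin- Sca-1+ c-kit+ cells that were CD150+ and negative for CD34, CD48 and Flt3. The multipotent progenitors (MPPs) shared the Lin- Sca-1+ c-kit+ gate and CD34: MPP1 were CD150+ without CD48, MPP2 had both, MPP3 had CD48 without CD150, and MPP4 were like MPP3 but also Flt3+. Progenitors of granulocytes and macrophages (GMPs) were Sca-1- c-kit+ with Fcγ receptor and CD34, progenitors of megakaryocytes and erythrocytes (MEPs) were Sca-1- c-kit+ without either, and common lymphoid progenitors (CLPs) carried the IL-7 receptor with low Sca-1 and c-kit. By one statement of the study each age gave a single marrow pool from which fractions were sorted in duplicate, while other statements call the duplicates biological, so the spread between them may be technical.

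NF-κB proteins are dimers of Rel-family subunits that are kept in the cytoplasm by inhibitors of the IκB family. Signals from TNF, IL-1 and Toll-like receptors activate the IκB kinase complex, which marks the inhibitors for destruction and frees dimers such as p50 with RelA, while a slower, non-canonical branch processes the Nfkb2 product and acts through RelB. Several inhibitors and Tnfaip3 are themselves induced by NF-κB, so their transcripts are read in many tissues as a trace of recent signalling. In bone marrow the pathway is known for its part in the survival and differentiation of stem cells and lymphoid and myeloid precursors.

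RefSeq promoter windows (GRCm38.p6, 250 bases before to 50 after a start) were on hand for 6 of the 10 genes, 9 windows in all, and the entries for Nfkb1, Relb, Nfkbiz and Ikbkb were missing. The κB consensus, a 10-base motif, was searched on both strands, and matches that overlapped were merged. It was found in 7 of these 9 windows and in 5 of the 6 genes (Nfkb2, Rel, Nfkbia, Nfkbie and Tnfaip3), against 1480 of 32851 windows, or 4.51%, over all genes. The window of Rela and the second of Tnfaip3 held no match. Below, for the 5 genes with a match, the stretch around the matches is written 5′ to 3′ on the strand of the gene. Matched bases are in capitals, to show the κB letters near the gene starts. Where a gene has several starts, the first is shown. A match describes the letters alone.
Nfkbia, chr12:55492652-55492691, minus strand: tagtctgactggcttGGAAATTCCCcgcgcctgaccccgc
Nfkbie, chr17:45555579-45555618, plus strand: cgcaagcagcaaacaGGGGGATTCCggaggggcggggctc
Rel, chr11:23771036-23771076, minus strand: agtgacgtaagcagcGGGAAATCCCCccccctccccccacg
Nfkb2, chr19:46304683-46304750, plus strand: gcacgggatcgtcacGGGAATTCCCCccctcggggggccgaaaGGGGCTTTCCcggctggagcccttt
Tnfaip3, chr10:19015398-19015550, minus strand: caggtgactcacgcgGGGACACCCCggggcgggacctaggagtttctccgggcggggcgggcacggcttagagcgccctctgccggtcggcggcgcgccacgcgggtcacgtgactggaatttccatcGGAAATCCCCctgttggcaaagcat

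Total counts ranged from 11237384 to 17723245 per library, so that a count of 0 allowed up to 3 counts, or 0.186 to 0.281 CPM (counts scaled to TMM library sizes). Such floors cover counting error only, since the reads carried no molecular identifiers. Lists of genes that mark HSCs (Slamf1, Procr, Mecom, Hlf, Fgd5), MPP4 (Flt3, Cd48, Cd34), GMPs (Mpo, Elane, Fcgr3, Csf1r), MEPs (Gata1, Klf1, Epor, Itga2b) and CLPs (Il7r, Flt3, Dntt, Rag1) each had their highest summed level in the fraction of that name at both ages. Lists for other cell types, and 18 immediate early and heat shock genes that respond to handling of cells, are given beside the age results of HSCs, MPP4, GMPs, MEPs, CLPs and the MPP mean where at least 3 genes of the list were called. Counts and summed levels are given, not fold changes, since many of these genes are near 0. In bulk RNA, fewer cells of a type and less RNA per cell cannot be told apart.

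**Figure D1:**
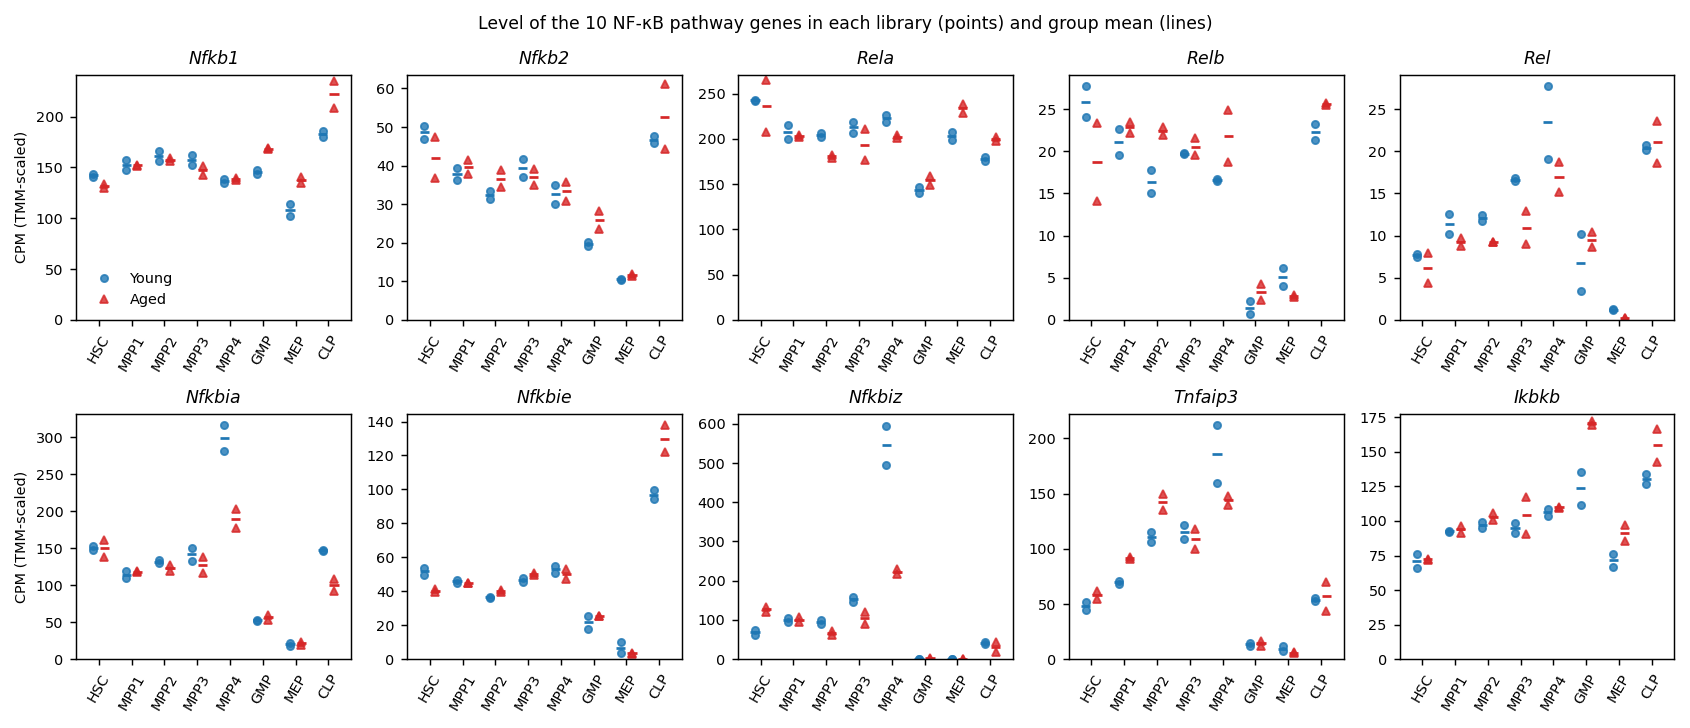
Level of each of the 10 genes in CPM (vertical axis, from 0, with its own scale in each panel) in 8 fractions (horizontal axis). Circles are young libraries, triangles aged libraries and short lines group means of 2. Nfkbia and Nfkbiz peak in MPP4 at both ages and Tnfaip3 in young MPP4, while aged MPP4 and MPP2 have about the same Tnfaip3 level. Of the 10 genes, 6 have their lowest young level in MEPs with the GMPs next.

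Compared per kilobase of the principal transcript, since longer transcripts give more reads, Nfkbia and Rela had the highest levels, with means over the 16 groups of 76.9 and 74.0 CPM per kilobase. Nfkb1 (37.1), Ikbkb (29.5), Nfkbiz (25.2), Nfkbie (19.1), Tnfaip3 (17.4), Nfkb2 (10.9) and Relb (7.55) followed, and Rel was lowest at 1.53. Which of the leading pair was higher depended on the fraction. In young MPP4, Nfkbia stood at 189 and Rela at 81.9 CPM per kilobase. In young GMPs the order was the opposite, with 33.5 for Nfkbia and 52.8 for Rela, and in young MEPs Nfkbia was at 12.9 and Rela at 74.9. From the highest to the lowest young fraction Nfkbia covered a ratio of 14.6 and Rela a ratio of 1.69.

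Among the subunits, Rela and Nfkb1 encode the canonical dimer of RelA and p50. Both were read in every fraction, Rela at the higher level per kilobase. Rela (chromosome 19, 5637483 to 5648130, plus strand, GRCm38) was highest in young HSCs, at 242 and 243 CPM, and lowest in young GMPs, at 140 and 147 CPM. Of its 28 pairs of young fractions, 9 differed at an adjusted p under 0.01 (edgeR quasi-likelihood test). The pairs of HSCs with MPP1 to MPP4 and with MEPs did not, with an adjusted p of 0.254 for MPP4, the next fraction. Nfkb1 (chromosome 3, 135584655 to 135691547, minus strand) overlaps Gm43430 on the same strand. It ran from 180 and 186 CPM in young CLPs to 114 and 102 CPM in young MEPs, with a ratio of 1.70. The CLP libraries were above all others, yet their difference from the next fraction, MPP2, missed the threshold (log2 difference 0.18, SE 0.07, adjusted p 0.0232).

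Nfkb2 and Relb form the non-canonical dimer, and both were lowest in GMPs and MEPs. Nfkb2 (chromosome 19, 46304320 to 46312385, plus strand) overlaps Psd and AC114539.1 on the other strand. It had 50.3 and 47.0 CPM in young HSCs, 20.3 and 19.1 in GMPs and 10.7 and 10.4 in MEPs. The steps from MPP2 to GMPs and from GMPs to MEPs were called, with log2 differences of 0.71 (adjusted p 1.81e-04) and 0.90 (adjusted p 3.22e-05). Relb (chromosome 7, 19606217 to 19629438, minus strand) had 27.8 and 24.1 CPM in young HSCs and 0.713 and 2.21 CPM in young GMPs, 17.7 times lower by group means. Rel (chromosome 11, 23736847 to 23770970, minus strand), the subunit c-Rel of lymphoid cells, was highest in young MPP4, at 27.7 and 19.1 CPM, and in CLPs, at 20.7 and 20.2 CPM. Its level was 1.15 and 1.29 CPM in young MEPs, and duplicates differed in young GMPs, at 3.42 and 10.2 CPM.

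Nfkbia (chromosome 12, 55489410 to 55492647, minus strand) encodes IκBα, the inhibitor that is destroyed and resynthesised in each round of signalling. Young HSCs had 148 and 153 CPM, MPP1 110 and 119, MPP2 130 and 134, MPP3 133 and 151, MPP4 317 and 281, GMPs 52.0 and 53.6, MEPs 22.5 and 18.3, and CLPs 148 and 146 CPM. MPP4 was above every other fraction without overlap and MEPs were below all others. MPP4 exceeded HSCs, which came next, by 0.99 on the log2 scale (adjusted p 2.63e-07).

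Nfkbiz (chromosome 16, 55811375 to 55838899, minus strand) encodes IκBζ, a nuclear member of the family that is induced early and acts on secondary response genes. Young HSCs had 74.5 and 62.4 CPM, MPP1 106 and 95.9, MPP2 99.5 and 89.4, MPP3 147 and 159, MPP4 596 and 495, and CLPs 44.4 and 38.7 CPM. GMPs held 2 and 8 counts and MEPs 0 and 4 counts, so Nfkbiz was near or under the floor in the fractions of restricted myeloid and erythroid fate. MPP4 exceeded MPP3 by 1.84 on the log2 scale (adjusted p 1.93e-05).

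Of the other feedback genes, Tnfaip3 was also highest in MPP4 and Nfkbie was not. Nfkbie (chromosome 17, 45555703 to 45563169, plus strand), which encodes IκBε, was highest in young CLPs, at 94.2 and 99.4 CPM, and exceeded MPP4 by 0.87 on the log2 scale (adjusted p 6.52e-04). In aged cells CLPs led again, with 138 and 122 CPM. Tnfaip3 (chromosome 10, 19000910 to 19015657, minus strand), which encodes the ubiquitin-editing enzyme A20, had 212 and 159 CPM in young MPP4, and stood at 12.0 and 14.8 in GMPs and 11.7 and 7.32 in MEPs. Young MPP4 did not differ from the next fraction, MPP3, beyond the threshold. In aged cells MPP4 and MPP2 had about the same Tnfaip3 level, with means of 144 and 142 CPM. Ikbkb (chromosome 8, 22659212 to 22706589, minus strand, overlapping Gm15346 on the other strand), the catalytic kinase IKKβ, went another way: young CLPs had 134 and 127 CPM, GMPs 112 and 136, MEPs 76.1 and 66.9 and HSCs 76.2 and 66.2.

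Of the 280 comparisons of a gene between a pair of fractions, 159 were called in young cells, where 42.4% of such comparisons were called over all tested genes. In aged cells 155 of 280 were called, against 40.8%. The count per gene ran from 9 of 28 pairs for Rela to 21 of 28 for Nfkbiz in young cells, and from 10 for Rela to 22 for Nfkbiz in aged cells. Fraction held 80.0% (Nfkb1) to 97.5% (Tnfaip3) of the variance of a gene's log2 CPM. Age within fraction held 16.8% for Nfkb1, 10.8% for Rela and 10.3% for Ikbkb, and at most 6.11% for the other 7. Differences between duplicates held 8.52% for Rela and less for the others.

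**Figure D2:**
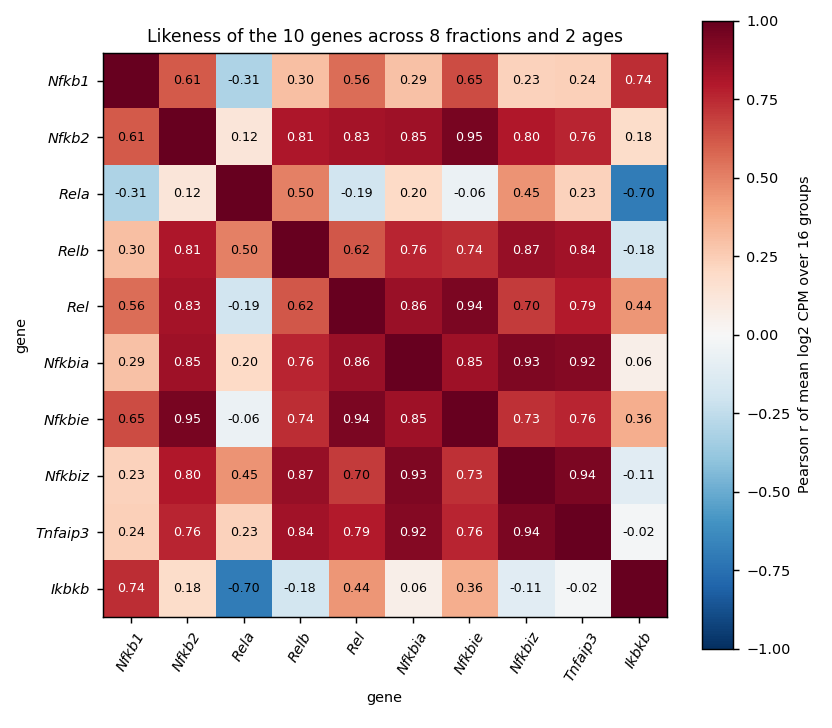
Pearson correlation of mean log2 CPM over the 16 groups for each pair of the 10 genes (both axes), with the value printed in each cell. The highest values link Nfkb2 with Nfkbie (0.95), Nfkbiz with Tnfaip3 (0.94) and Rel with Nfkbie (0.94), and Ikbkb and Rela stand apart at -0.70.

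Over the 16 group means, which share fractions, ages and one sequencing design, the most alike pairs by Pearson r held inhibitors and feedback genes with each other and with subunits. Nfkb2 and Nfkbie had a Pearson r of 0.95, Nfkbiz and Tnfaip3 0.94, Rel and Nfkbie 0.94, Nfkbia and Nfkbiz 0.93, and Nfkbia and Tnfaip3 0.92. Spearman's rho for the same pairs was 0.77, 0.84, 0.77, 0.81 and 0.69. The next by r were Relb with Nfkbiz (r 0.87, rho 0.30) and Rel with Nfkbia (r 0.86, rho 0.55). Ranked by rho instead, the subunits Nfkb2 and Relb stood level with Nfkbiz and Tnfaip3 at 0.84 (r 0.81). Relb and Nfkbie had a rho of 0.72 (r 0.74), above that of Nfkbia and Tnfaip3. Rela, the main activating subunit, had r values of -0.70 with Ikbkb and -0.31 with Nfkb1. Among all other tested genes, those with the pattern most like Nfkbia were Map3k8 (r 0.975), a kinase bound by p105, and Ccl4 (0.968), a chemokine. Efna4 (0.983) and Slc12a7 (0.978) were most like Nfkbiz, Trp53bp1 (0.978) and Faah (0.974) most like Tnfaip3, Runx2 (0.985) and Slc27a1 (0.984) most like Nfkbie, and Gpsm1 (0.990) and Mndal (0.986) most like Rel. For Nfkb2 they were Hcls1 (0.975) and Kank2 (0.971), for Relb Aff3 (0.973) and Scml4 (0.967), for Rela Dnajb2 (0.948) and Ppp1r9b (0.945), for Ikbkb Brpf1 (0.943) and Mia3 (0.941), and for Nfkb1 Ryr1 (0.920) and Lrp8 (0.919).

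**Figure D3:**
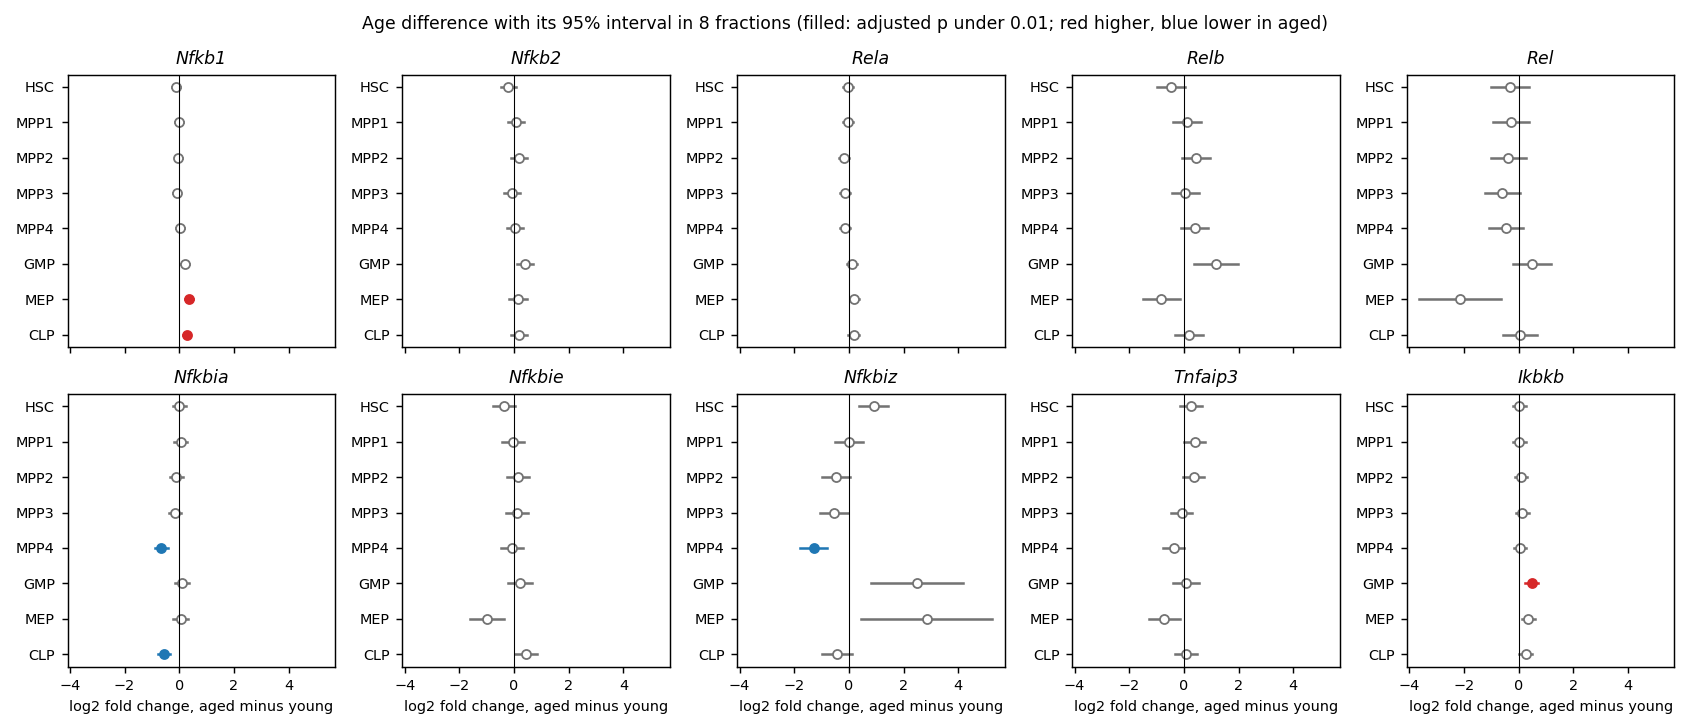
Log2 fold change of aged against young cells (horizontal axis) with its 95% interval in 8 fractions (vertical axis) for each of the 10 genes, from edgeR. Filled points have an adjusted p under 0.01: Nfkbia and Nfkbiz were lower in aged MPP4 and Nfkbia in aged CLPs (blue), Nfkb1 was higher in aged MEPs and CLPs and Ikbkb in aged GMPs (red).

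The study compared ages within each fraction, and the clearest age difference of these genes was in MPP4, the lymphoid-primed progenitors. Nfkbiz had 596 and 495 CPM in young and 217 and 229 CPM in aged MPP4 libraries. Nfkbia had 317 and 281 CPM in young and 177 and 202 CPM in aged libraries. For both, the aged libraries lay below the young ones without overlap, and yet aged MPP4 still had the highest level of each gene among aged fractions. The log2 fold change was -1.29 for Nfkbiz (SE 0.24, adjusted p 4.01e-04) and -0.65 for Nfkbia (SE 0.11, adjusted p 1.60e-04) by edgeR's quasi-likelihood test with Benjamini-Hochberg adjustment.

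These were 2 of the 10 genes, both lower, where 16.6% of all tested genes were called in MPP4. The median log2 fold change was -0.11 over the 10 and -0.02 over all tested genes. Tnfaip3, which like Rel was also highest in young MPP4, had 212 and 159 CPM in young and 140 and 148 CPM in aged libraries (-0.37, SE 0.18, adjusted p 0.150). The subunits gave log2 fold changes of 0.02 (Nfkb1), 0.03 (Nfkb2), -0.14 (Rela), 0.39 (Relb) and -0.47 (Rel) with adjusted p-values of 0.268 and above. The summed level of the 18 immediate early and heat shock genes was 22100 and 21200 CPM in young and 17500 and 18600 CPM in aged MPP4, and 5 of them were lower (Junb, Ier2, Nr4a1, Btg2 and Dnajb1) and 3 higher (Fosb and the near-identical copies Hspa1a and Hspa1b, whose reads cannot be told apart with certainty). The part of this in the lower Nfkbiz and Nfkbia was not tested. Fos and Egr1, defining members of the list, had log2 fold changes of 0.29 and -0.35 and were not called. Of the 5 HSC markers 3 were lower (575 and 517 CPM in young and 235 and 229 CPM in aged MPP4), and of 8 macrophage and monocyte genes 3 were lower and 1 higher (80.2 and 86.5 against 75.0 and 67.5 CPM). Their part was not tested either.

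In CLPs Nfkbia was also lower, at 148 and 146 CPM in young and 108 and 92.0 CPM in aged libraries (log2 fold change -0.56, SE 0.11, adjusted p 0.00154). Nfkb1 was higher, at 180 and 186 CPM in young and 235 and 209 CPM in aged libraries (0.28, SE 0.07, adjusted p 0.00466). Neither pair of groups overlapped. These were 2 of the 10 genes, where 10.4% of all tested genes were called. Nfkbie had 94.2 and 99.4 CPM in young and 138 and 122 CPM in aged CLPs, also without overlap, but its fold change of 0.43 did not pass (SE 0.19, adjusted p 0.124).

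Several lists of other cells moved between young and aged CLPs, in both directions. The 6 basophil and mast cell genes were all lower, with a summed level of 1740 and 1790 CPM in young and 8.26 and 12.3 CPM in aged libraries, and Prss34 fell from a mean of 1300 CPM to 0 counts in both aged libraries. Of 8 B cell genes 7 were lower (2680 and 2740 against 1260 and 1260 CPM), and of 8 neutrophil genes 8 were lower (1930 and 1980 against 349 and 357 CPM), as were 3 of the 4 GMP markers (1400 and 1440 against 247 and 328 CPM). Higher in aged CLPs were 5 of 6 megakaryocyte genes (39.6 and 37.8 against 126 and 196 CPM) and 4 of 7 dendritic cell genes (6810 and 6890 against 11900 and 9150 CPM). Of 8 macrophage and monocyte genes 4 were lower and 3 higher (1170 and 1220 against 2600 and 2320 CPM). Of 18 immediate early and heat shock genes 11 were lower, at 7620 and 8260 CPM in young and 4690 and 2760 CPM in aged libraries. The aged duplicates also differed for Nfkbiz, at 43.0 and 18.1 CPM, and for Tnfaip3, at 70.3 and 43.7 CPM. Each of the 10 genes was lower in the second aged library, which also had the lower immediate early level. Nfkb1 had 235 and 209 CPM and Nfkb2 61.1 and 44.3 CPM, while Rela (202 and 197 CPM) and Relb (25.8 and 25.5 CPM) differed little. The part of these lists in the CLP results was not tested. Without the first or the second young CLP library or the first aged one, Nfkb1 had adjusted p-values of 0.0627, 0.0271 and 0.128, and without the first or second young or the second aged library Nfkbia had 0.0132, 0.0103 and 0.0223. The call of Nfkb1 was also lost with offsets for GC content and length (0.24, adjusted p 0.0107), and with only the 4 CLP libraries fitted neither Nfkb1 (0.28, adjusted p 0.0934) nor Nfkbia (-0.55, adjusted p 0.0291) was called.

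Aged GMPs had more Ikbkb transcript, at 170 and 172 CPM against 112 and 136 CPM in young GMPs (log2 fold change 0.47, SE 0.11, adjusted p 0.00259). All aged values were above the young ones. It was the 1 gene of 10 that was called, where 18.9% of all tested genes were. The median log2 fold change was 0.31 over the 10 genes and 0.00 over all tested genes. Nfkbiz had 2 and 8 counts in young and 32 and 13 counts in aged GMPs and did not pass (2.49, SE 0.82, adjusted p 0.0251). Beside this, 12 of the 18 immediate early and heat shock genes were higher in aged GMPs, with summed levels of 605 and 604 CPM in young and 3530 and 3960 CPM in aged libraries. Of 7 erythroid genes 4 were lower (174 and 189 against 36.6 and 21.1 CPM), as were 3 of 4 MEP markers (at least 58.0 CPM in young and at most 53.3 CPM in aged libraries) and 4 of 8 neutrophil genes, whose sum stayed at 85900 to 87000 CPM. The part of these lists in the GMP values was not tested. The call of Ikbkb was lost without the first young GMP library (0.32, adjusted p 0.0715) and without the first (adjusted p 0.0204) or second aged one (adjusted p 0.0227), with offsets for GC content and length (0.33, adjusted p 0.0234), and with only the 4 GMP libraries fitted (0.46, adjusted p 0.0243).

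In MEPs Nfkb1 was higher with age, at 114 and 102 CPM in young and 135 and 141 CPM in aged libraries, without overlap (log2 fold change 0.35, SE 0.07, adjusted p 3.37e-04). It was again the 1 gene of 10 that was called, where 20.8% of all tested genes were. Of those not called, Nfkbie (9.86 and 3.59 CPM in young, 3.09 and 3.70 in aged, adjusted p 0.0140) had young duplicates far apart. Rel had 3 and 3 counts in aged MEPs (adjusted p 0.0267), at the floor. Ikbkb (76.1 and 66.9 against 85.4 and 96.8 CPM, 0.35, adjusted p 0.0201) did not overlap between ages. Summed over the immediate early and heat shock genes, there were 515 and 636 CPM in young and 955 and 1330 CPM in aged MEPs, with 5 genes higher and 2 lower. Lists of other cells moved in MEPs as well. Of 8 B cell genes 6 were lower (194 and 182 CPM in young and 1.22 and 0.430 CPM in aged libraries, where 6 and 7 of the 8 were at 0), of 4 CLP markers 4 (69.1 and 74.6 against 0.187 and 0.430 CPM), of 8 macrophage and monocyte genes 7 (25.6 and 30.1 against 3.56 and 4.39 CPM) and of 4 GMP markers 4 (259 and 235 against 103 and 24.7 CPM). Neutrophil genes (272 and 246 against 118 and 25.0 CPM) and dendritic cell genes (72.8 and 72.8 against 64.4 and 70.6 CPM) each had 3 lower and 1 higher. The part of these lists in the MEP values was not tested. Without the second young or the second aged MEP library the call of Nfkb1 was lost (0.22, adjusted p 0.0280, and 0.27, adjusted p 0.0195), as it was with only the 4 MEP libraries fitted (0.33, adjusted p 0.0439).

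In HSCs, MPP1, MPP2 and MPP3 edgeR called 0 of the 10 genes, where 5.40%, 6.80%, 7.81% and 13.9% of all tested genes were called. The DESeq2 Wald test also called 0 in each, with no share over all genes at hand. In HSCs the lowest adjusted p by edgeR was that of Nfkbiz (log2 fold change 0.90, SE 0.25, adjusted p 0.0218). It had 74.5 and 62.4 CPM in young and 134 and 121 CPM in aged HSCs, without overlap. In MPP3 it had 147 and 159 CPM in young and 88.5 and 121 CPM in aged libraries (-0.55, SE 0.24, adjusted p 0.111), and in MPP1 and MPP2 the log2 fold changes were 0.00 and -0.48. Immediate early and heat shock genes together stood at 22000 and 21600 CPM in young and 23100 and 25900 CPM in aged HSCs, with 3 genes higher. Of 8 neutrophil genes 5 were higher (135 and 144 CPM in young and 307 and 377 CPM in aged HSCs), and of 6 basophil and mast cell genes 4 (1.62 and 0.978 against 10.3 and 18.2 CPM). The part of these lists in the Nfkbiz values was not tested.

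**Figure D4:**
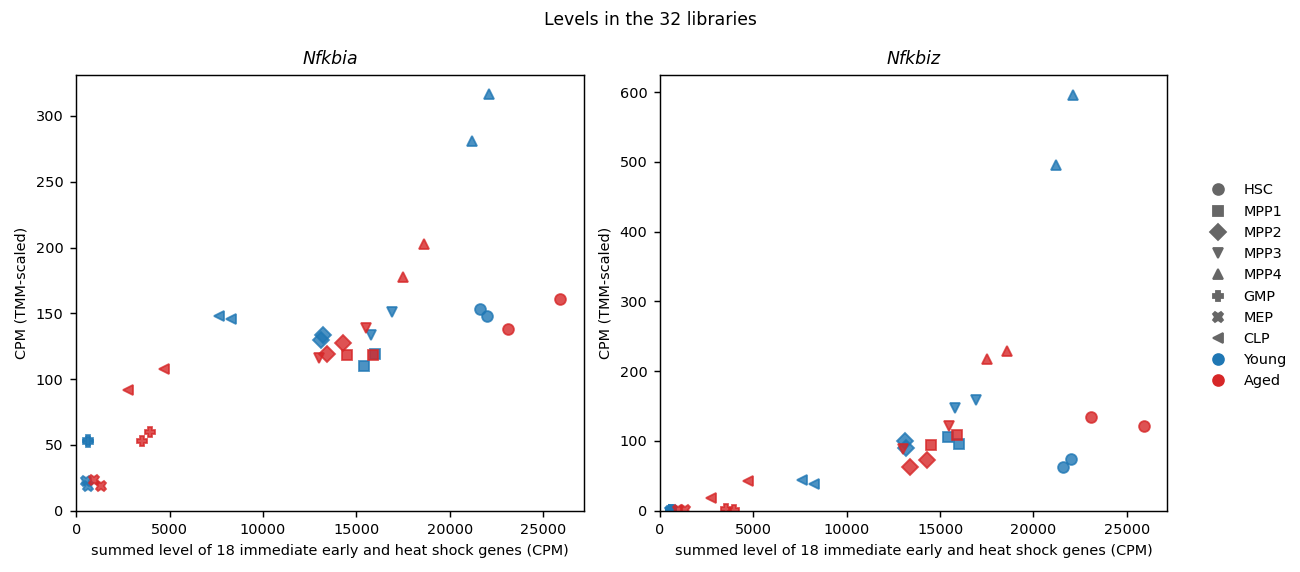
CPM of Nfkbia (left) and Nfkbiz (right) in each of the 32 libraries (vertical axes) against the summed level of 18 immediate early and heat shock genes in CPM (horizontal axes). Colours give the age and symbols the fraction. Young MPP4 stand at 21200 and 22100 CPM with the highest Nfkbia and Nfkbiz, and HSC libraries with about as much of the list or more have less of both genes. The part of the list in the level of either gene was not tested.

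Averaged over MPP1 to MPP4, the age difference was called for 2 of the 10 genes, both lower, where 36.7% of all tested genes were called. They were Nfkbiz, at -0.58 (SE 0.12, adjusted p 4.79e-04), and Nfkbia, at -0.22 (SE 0.06, adjusted p 0.00331). MPP4 weighs most on both means: in MPP1 to MPP3 the log2 fold change of Nfkbia was 0.05, -0.10 and -0.16, none of them called. In the same mean, 6 of the 18 immediate early and heat shock genes were lower and 6 higher. Of 7 erythroid genes 6 were lower, as were 6 of 8 macrophage and monocyte genes and 3 of 8 B cell genes. So were 3 of 6 stromal and endothelial genes and 4 of 5 HSC markers. Neutrophil genes had 5 lower and 1 higher of 8, megakaryocyte genes 3 and 1 of 6, MEP markers 3 and 1 of 4, and dendritic cell genes and CLP markers 2 and 1 each. Summed over their list, erythroid genes stood at 901 to 1750 CPM in the young and 504 to 1300 CPM in the aged MPP libraries, and the part of these lists was not tested. The mean for Nfkbia lost its call when any 1 of 8 of the 16 libraries was left out, with values of -0.20 (second young MPP1), -0.17 (second young MPP3), -0.19 (first young MPP4), -0.19 (first aged MPP1), -0.19 (second aged MPP1), -0.18 (first aged MPP2), -0.16 (first aged MPP3) and -0.17 (first aged MPP4) and adjusted p-values up to 0.0238.

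Whether age acted differently between fractions was asked directly. An interaction test over the 8 fractions was called for 3 of the 10 genes, where 34.9% of all tested genes were called: Nfkbiz (adjusted p 2.61e-04), Nfkb1 (8.56e-04) and Nfkbia (0.00183). Against the MPP mean, the age difference in HSCs was called for 1 of 10, where 3.00% of all tested genes were, namely Nfkbiz (difference of log2 fold changes 1.48, SE 0.28, adjusted p 0.00211). In GMPs it was again Nfkbiz that was called, 1 of 10 against 26.6% (3.07, SE 0.81, adjusted p 0.00500), a value that rests on 2 and 8 counts in young GMPs. In MEPs and CLPs it was Nfkb1, 1 of 10 against 24.8% (0.38, SE 0.07, adjusted p 3.87e-04) and 1 of 10 against 22.6% (0.30, SE 0.07, adjusted p 0.00263). These 4 differences share the MPP libraries. With offsets for GC content and length the interaction of Nfkb1 was not called (adjusted p 0.0591), nor were its differences in MEPs (0.21, adjusted p 0.0344) and CLPs (0.21, adjusted p 0.0314) or that of Nfkbiz in GMPs (2.88, adjusted p 0.0107). The Nfkbiz value in HSCs lost its call without the first (1.56, adjusted p 0.0105) or second young HSC library (1.29, adjusted p 0.0388), and that in GMPs without the first young (2.44, adjusted p 0.0456) or first aged GMP library (2.26, adjusted p 0.139). The Nfkb1 value in MEPs lost it without the second young (0.23, adjusted p 0.0313) or second aged MEP library (0.28, adjusted p 0.0222), and that in CLPs without the first young (0.25, adjusted p 0.0440), second young (0.30, adjusted p 0.0179) or first aged CLP library (0.20, adjusted p 0.0887).

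**Figure D5:**
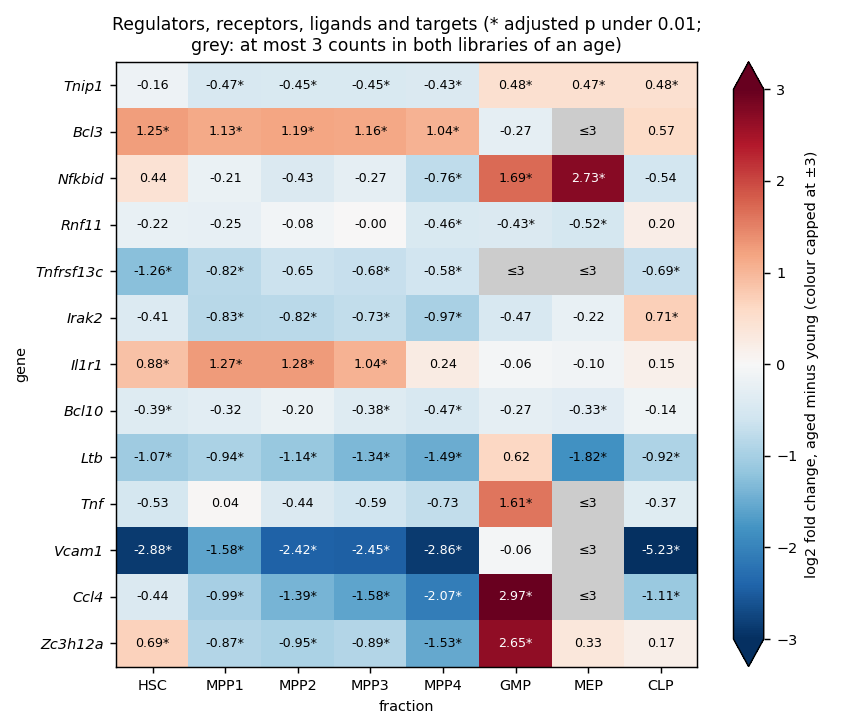
Log2 fold change of aged against young cells, printed and coloured, for the named regulators, receptors, ligands and targets of the pathway (vertical axis) in 8 fractions (horizontal axis). A star marks an adjusted p under 0.01 and grey cells have at most 3 counts in both libraries of an age; Ltb, Vcam1 and Tnfrsf13c are lower in most fractions and Bcl3 and Il1r1 higher in HSCs and MPP1 to MPP3.

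The rest of the pathway was read from 4 lists, and the genes named are those called in the most fractions. Of 18 further regulators of the kinase and the inhibitors, 1 was higher and 3 were lower in aged MPP4, where 16.6% of all tested genes were called. In GMPs it was 3 and 1 (18.9% of all genes), in MEPs 2 and 3 (20.8%), in MPP3 2 and 1 (13.9%), in MPP2 also 2 and 1 (7.81%), in MPP1 1 and 1 (6.80%), and 1 was higher in HSCs (5.40%) and in CLPs (10.4%). Tnip1, which encodes a partner of A20, was called in 7 of 8 fractions but not in one direction. It was lower in aged MPP1 to MPP4 (log2 fold changes -0.47, -0.45, -0.45 and -0.43) and higher in aged GMPs, MEPs and CLPs (0.48, 0.47 and 0.48). Bcl3, a nuclear IκB protein, was higher in HSCs and MPP1 to MPP4, from a mean of 18.7 to 44.3 CPM in HSCs (1.25, SE 0.23, adjusted p 8.90e-04), with 1.13, 1.19, 1.16 and 1.04 in MPP1 to MPP4. It was called lower in MEPs, from 12 and 32 counts in young to 0 and 3 counts in aged libraries (adjusted p 0.00274), where the aged level was at the floor. Nfkbid, another nuclear IκB protein, was lower in aged MPP4 (175 to 104 CPM, -0.76, adjusted p 3.30e-04) and higher in GMPs (1.69) and MEPs (2.73) from means of 2.81 and 0.592 CPM. Rnf11, a subunit of the A20 complex, was lower in MPP4 (-0.46), GMPs (-0.43) and MEPs (-0.52).

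Of 28 receptors and adaptors, 3 were called in aged MPP4, each of them lower, where 16.6% of all tested genes were called. CLPs had 4 higher and 1 lower (10.4% of all genes), MEPs 3 and 4 (20.8%), GMPs 3 and 1 (18.9%), MPP3 1 and 3 (13.9%), MPP2 2 and 1 (7.81%), MPP1 1 and 2 (6.80%) and HSCs 1 and 2 (5.40%). The median log2 fold changes over the list lay between -0.11 in MEPs and 0.22 in CLPs, and those over all tested genes between -0.04 and 0.02. Tnfrsf13c, the receptor for the survival factor BAFF, was lower in 7 fractions, from 72.5 to 44.8 CPM in CLPs (-0.69, adjusted p 0.00237) and from 25.4 to 10.6 CPM in HSCs (-1.26, adjusted p 2.52e-05). Il1r1, the signalling receptor for IL-1, was higher in aged HSCs (0.88), MPP1 (1.27), MPP2 (1.28) and MPP3 (1.04), reaching 105 CPM in aged MPP3 from 51.2 in young. In MPP4, where it was highest, it had 158 CPM in young and 187 in aged cells (0.24, adjusted p 0.309). Irak2, a kinase below that receptor, was lower in MPP1 to MPP4 (-0.83, -0.82, -0.73 and -0.97) and higher in CLPs (0.71), and Bcl10, an adaptor of antigen receptor signalling, was lower in HSCs (-0.39), MPP3 (-0.38), MPP4 (-0.47) and MEPs (-0.33).

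Of 8 ligands, 6 were tested and 2 were called anywhere. Ltb, which encodes lymphotoxin β, a ligand of the non-canonical branch, was lower in 7 of 8 aged fractions. It fell from a mean of 365 CPM (SD 9.58) to 174 CPM (SD 18.3) in HSCs (-1.07, SE 0.12, adjusted p 2.01e-06) and from 136 CPM (SD 12.5) to 48.3 CPM (SD 2.79) in MPP4 (-1.49, SE 0.12, adjusted p 2.47e-08), with n = 2 in each group. GMPs, where Ltb was at 0.492 and 0.759 CPM, were the exception. Tnf had 55.8 CPM in young and 33.8 CPM in aged MPP4 (-0.73, SE 0.26, adjusted p 0.0417), and it was called higher in GMPs from 0.916 to 2.81 CPM (1.61, adjusted p 0.00632).

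Of 26 genes known as targets of NF-κB, 25 were tested, and 9 were lower and 2 higher in aged MPP4, with a median log2 fold change of -0.76. Over all tested genes 16.6% were called there, and the median was -0.02. Lower and higher targets numbered 8 and 1 in MPP3 (13.9% of all genes called), 5 and 1 in MPP2 (7.81%), 4 and 1 in MPP1 (6.80%), 1 and 2 in HSCs (5.40%), 6 and 2 in CLPs (10.4%), 6 and 2 in MEPs (20.8%), and 1 and 8 in GMPs (18.9%). The list shares Bcl3 and Nfkbid with the regulators and Birc3 and Traf1 with the receptors. Ccl4, the chemokine with one of the patterns most like Nfkbia, fell in MPP4 from 267 CPM (SD 19.9) to 63.6 CPM (SD 3.18), a log2 fold change of -2.07 (SE 0.19, adjusted p 1.34e-07). Zc3h12a, which encodes an RNase that cuts inflammatory transcripts, fell from 74.5 to 25.8 CPM there (-1.53, adjusted p 6.03e-07), although its young duplicates had an SD of 22.2 CPM. In GMPs both were higher, Ccl4 from 0.561 to 4.46 CPM (2.97) and Zc3h12a from 0.597 to 3.79 CPM (2.65). Vcam1, an adhesion molecule that is also on the macrophage list, was lower in 7 fractions, from 17.9 to 2.46 CPM in MPP4 (-2.86, adjusted p 6.44e-08) and from 54.2 to 1.44 CPM in CLPs (-5.23, adjusted p 9.88e-12). In CLPs the macrophage and monocyte list was split: Vcam1, Adgre1, C1qa and C1qb were lower, and Cd68, Mpeg1 and Ly6c2 higher. The last 3 are abundant, with means of 107, 702 and 220 CPM in young and 292, 1650 and 451 CPM in aged CLPs, and carry the sum of the list. C1qa (18.7 to 0.232 CPM) and C1qb (29.3 to 0.716 CPM), complement genes of macrophages, went the same way as Vcam1, and the part of such cells in the Vcam1 values was not tested.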

How the data were processed

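RNA was sequenced from 8 sorted bone marrow fractions at 2 ages, with 2 libraries per group and 32 in all. The authors extracted RNA, amplified cDNA with a low-input template-switching kit, sequenced single reads, aligned them to mm10 with TopHat2 2.0.13 and Bowtie2 2.1.0 and counted genes of an iGenomes annotation with StringTie. The deposited values used here are these raw counts, as whole numbers per gene symbol. Use of strand was not stated, so genes that overlap on the other strand (Nfkb2 with Psd and AC114539.1, Ikbkb with Gm15346) can share reads. Nfkb1 overlaps Gm43430 on the same strand and can share reads in any case. PCR copies count as separate reads. The authors' normalized counts and their own comparison tables were not used.

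The 10 genes and all lists were chosen with earlier results of these data known. Counts were tested in R 4.3.3 with edgeR 4.0.16 (glmQLFit and glmQLFTest, two-sided). The fit used all 32 libraries, TMM factors (0.807 to 1.11), filterByExpr over the 16 groups and a mean for each group, which left 16 residual degrees of freedom. P-values were adjusted by Benjamini-Hochberg over 14154 genes within each contrast, and an adjusted p under 0.01 is a call. The 28 pairs of fractions at each age were handled in the same way. Levels are CPM with TMM library sizes. The script was tested on simulated data.

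Named genes were the 10 members, up to 4 genes per pathway list called in the most fractions (ties by mean absolute log2 fold change), and for each member the 2 tested genes with the most similar group means. Positions, principal transcripts and GC content came from GENCODE M21 (GRCm38), where 23350 of 24421 symbols matched directly and 677 through an older symbol. Total counts were 11237384 to 17723245 per library, and with 2 libraries per group the spread is estimated mainly across groups. Alternatives tried were DESeq2 size factors, no filter on low counts, the DESeq2 Wald test, a replicate block, offsets for GC content and length, both of these together, an adjusted p under 0.05, each library left out, the 4 libraries of a fraction alone, and plain library totals for levels.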

Additional observations from a re-analysis of the deposited data

Results flagged for a closer look

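Age effects that differed between fractions, by a test of the difference itself, were seen for 3 of the 10 genes, where 34.9% of all tested genes were called. Over the 8 fractions the adjusted p of the interaction of age and fraction in edgeR was 2.61e-04 for Nfkbiz, 8.56e-04 for Nfkb1 and 0.00183 for Nfkbia. The log2 fold change of Nfkbiz in HSCs exceeded its mean over MPP1 to MPP4 by 1.48, with 0.90 in HSCs (adjusted p 0.0218) and -1.29 in MPP4 (adjusted p 4.01e-04), and that in GMPs exceeded the mean by 3.07, from very low counts. The log2 fold change of Nfkb1 exceeded the MPP mean by 0.38 in MEPs and by 0.30 in CLPs. With offsets for GC content and length, edgeR did not call the Nfkb1 interaction (adjusted p 0.0591). Nor did it call the Nfkb1 differences in MEPs (0.0344) and CLPs (0.0314) or the Nfkbiz difference in GMPs (0.0107).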

How the results depend on the processing

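Each group had 2 libraries, and levels were near the floor for Nfkbiz in GMPs and MEPs and for Rel in MEPs. There the call depended on the tool: edgeR called none of the 3 age differences, and the DESeq2 Wald test called Nfkbiz in GMPs (2.51, adjusted p 1.52e-04) and MEPs (2.87, adjusted p 0.00273) and Rel in MEPs (-2.23, adjusted p 0.00603). The 12 calls of single genes kept their direction in all 90 values under other settings and all 136 with 1 library left out. Of the 2044 values of the 118 results that were not called, 131 had the other sign, none with a call. Nfkbia and Nfkbiz in MPP4 were called under every setting tried, with log2 fold changes of -0.75 to -0.56 and -1.42 to -1.15.

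The number of the 10 genes called moved as follows, and the cause was not tested. The share of all tested genes called was taken only for edgeR at an adjusted p under 0.01. The counts here and below thus have no background beside them, and a rise cannot be read as particular to these genes. At an adjusted p under 0.05 it was 1 in HSCs, 5 in GMPs, 5 in MEPs, 4 for the MPP mean, 3, 6 and 3 for GMPs, MEPs and CLPs against that mean, and 6 for the interaction. The DESeq2 Wald test gave 4 in GMPs, 5 in MEPs, 4 for the MPP mean, 3, 6 and 2 for GMPs, MEPs and CLPs against it, and 7 for the interaction. DESeq2 size factors gave 3 for GMPs against the mean, and no filter on low counts gave 2 in MEPs. Offsets for GC content and length gave 0 in GMPs, 2 in MEPs, 1 in CLPs, and 0, 2 and 0 for GMPs, MEPs and CLPs against the mean. In a fit of the 4 libraries of a fraction, which has fewer residual degrees of freedom, the number was 1 in MPP1, 3 in MPP2, 0 in GMPs, 0 in MEPs and 0 in CLPs (Tnfaip3 in MPP1 and Relb, Nfkbiz and Tnfaip3 in MPP2).

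Within a fraction, replicate numbers did not pair young with aged libraries, with correlations of -0.06 to 0.07 between the deviations of their duplicates in the 8 fractions. Whether a replicate number pairs libraries of different fractions at the same age was not tested, and the replicate block was set within each fraction. With the replicate block 1 gene was called in CLPs (Nfkb1 had an adjusted p of 0.0140), and the replicate block with GC and length offsets gave 1 in HSCs, 0 in GMPs, 0 in MEPs, 1 in CLPs, and 0 and 0 for GMPs and CLPs against the MPP mean.

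With each library left out in turn the number was 0 to 3 in GMPs, 0 to 2 in MEPs, 0 to 2 in CLPs and 1 to 2 for the MPP mean. Against that mean it was 0 to 1 in HSCs, 0 to 4 in GMPs, 0 to 2 in MEPs and 0 to 1 in CLPs, and it was 3 to 5 for the interaction. Without the second young GMP library Relb (2.20, adjusted p 0.00249) and Rel (1.45, adjusted p 0.00291) were also called in GMPs. Without the second young MEP library Nfkbie (-1.58) and Tnfaip3 (-1.05) were called in MEPs in place of Nfkb1, and without the first aged CLP library Nfkbiz was called lower in CLPs (-1.19, adjusted p 0.00541). With plain library totals 84 of 160 group levels moved by more than the SD of their duplicates, by factors of 0.811 to 1.11.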
